A study of Canis lupus familiaris with 8 samples.

Results

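HTR2B, DDC, PRKCB and RGS2 are genes of serotonin production and of the Gq signalling route that a serotonin receptor uses, and they were followed here in the mitral valve of dogs. They were taken up because their signals were higher in affected than in control leaflets in an earlier analysis of the same arrays, so their differences between the groups are given as a description with no test. All probe sets whose annotation symbol was one of these 4 names were taken, 4 of the 6540 genes named on the array, which gave 5 of the 23836 probe sets that are not array controls, 2 for RGS2 and 1 for each other gene. RNA came from the anterior mitral valve leaflet of 8 dogs, frozen before extraction, with 1 Affymetrix array for each animal. The 4 affected dogs had degenerative mitral valve disease (DMVD), in which the leaflets thicken and lose their shape, and 2 of them, affected 2 and 4, were Miniature poodles, while affected 1 was a Lhasa apso and affected 3 a Dachshund. The 4 control dogs were all beagle crosses, so disease and breed cannot be told apart. The labels used here give no age, sex, stage of disease or treatment.

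Serotonin is made from tryptophan by a hydroxylase (TPH1 or TPH2) followed by the decarboxylase DDC, which also makes dopamine, and monoamine oxidases degrade it. HTR2B is a serotonin receptor coupled to Gq proteins, which activate phospholipase C beta, and this releases calcium through IP3 receptors and activates protein kinase C enzymes such as PRKCB. RGS2 speeds the return of the Gq subunit to its inactive state and so brakes the pathway, and its own transcription is quickly raised by many stimuli. Drugs that activate HTR2B are known to cause valve disease in people, which is why this receptor is studied in the valve.

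The values are MAS5 signals, the array maker's summary of the probes of 1 probe set, and every array had a trimmed mean signal of 500.1. Median signals ranged from 124 to 191 in affected dogs and from 133 to 157 in controls. Control 2 lay at the end of the range of all dogs on the fibroblast and the cardiac muscle markers. The mean log2 signal of 8 fibroblast and valve interstitial genes was 11.48 in that dog, against 13.41 to 13.88 in the other controls, and the 13 cardiac muscle genes were highest there, at 13.89. The same fibroblast list lay between 13.33 and 13.89 in the affected dogs, so control 2 was the lowest of all dogs on it. All 8 fibroblast genes still lay above the array's own 40th percentile in every dog. Each difference of the 4 genes is therefore also given without control 2. In whole tissue, fewer cells of a type and less RNA per cell cannot be told apart.

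HTR2B had higher signals in every affected dog than in any control. It had a signal of 1718, 2174, 629 and 897 in affected dogs 1 to 4, against 568, 69.4, 344 and 538 in controls 1 to 4. Affected 1 and 2 were the highest dogs, while affected 3 lay only just above control 1, by 0.15 on the log2 scale. On that scale the means were 10.23 ± 0.83 in affected dogs and 8.19 ± 1.42 in controls (SD, n = 4 each), a difference of 2.04 ± 0.66 (affected minus control, SE from limma), or 4.12-fold. Control 2 was the only array of the 8 on which HTR2B lay below that array's own 40th percentile, a level of 99.0. Without control 2 the difference was 1.35. HTR2B lies within the span of PSMD1, a proteasome subunit gene, in RefSeq (assembly UU_Cfam_GSD_1.0), and no probe set carried that symbol.

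**Figure D1:**
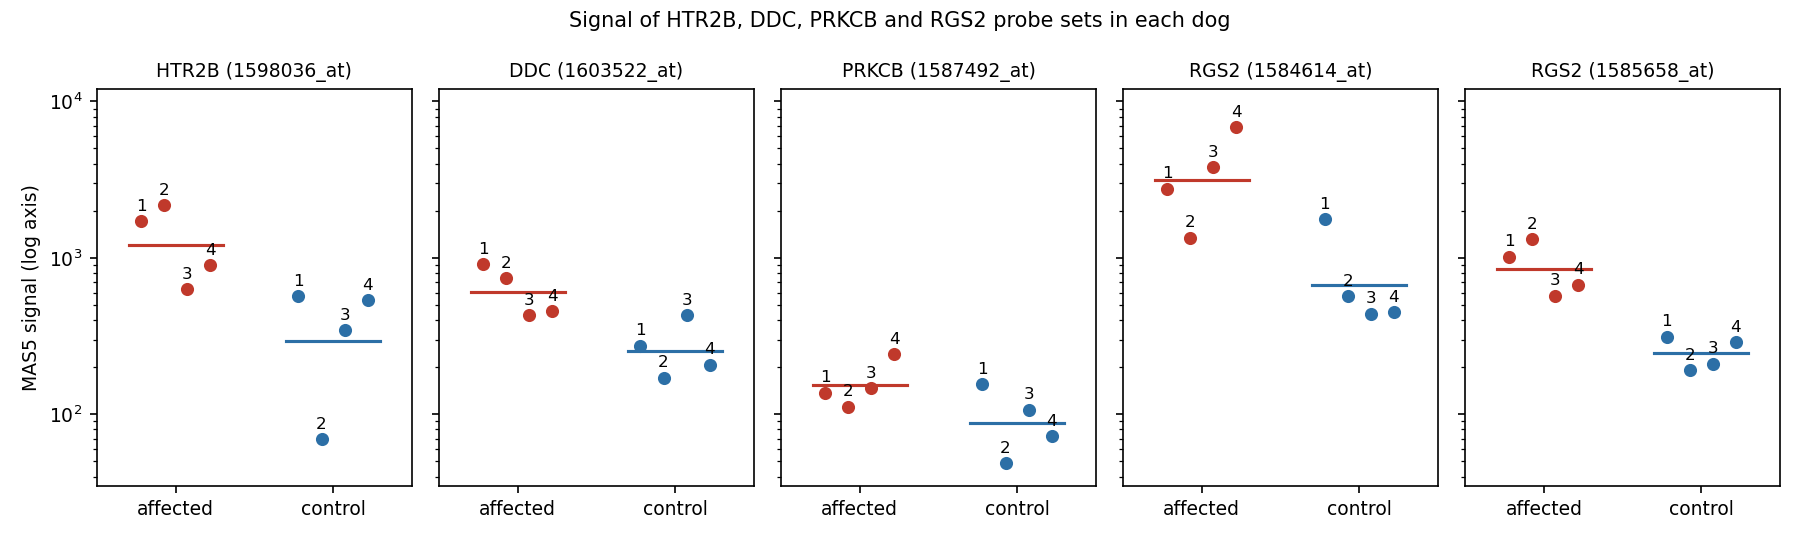
MAS5 signal on a log axis for each probe set of HTR2B, DDC, PRKCB and RGS2, with affected dogs in red, controls in blue, the dog number beside each point and a bar at the mean of the log2 values. Affected 1 and 2 are the high dogs for HTR2B, DDC and RGS2 probe set 1585658, and affected 3 and 4 for PRKCB and RGS2 probe set 1584614.

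DDC, the enzyme that makes serotonin from 5-hydroxytryptophan, showed a smaller difference with a touching edge between the groups. DDC had a signal of 907, 744, 429 and 455 in affected dogs 1 to 4, against 275, 172, 429 and 207 in controls 1 to 4. Control 3 and affected 3 had almost the same value, and the other 3 affected dogs lay above all controls. Its log2 signal averaged 9.24 ± 0.53 in affected dogs and 7.99 ± 0.58 in controls (SD, n = 4 each), a difference of 1.24 ± 0.36, or 2.37-fold, and it was 1.05 without control 2. All 8 arrays had DDC above their own 40th percentile.

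PRKCB, the beta form of protein kinase C, was dim and its groups overlapped. It had a signal of 138, 112, 147 and 243 in affected dogs 1 to 4, against 156, 48.8, 107 and 72.6 in controls 1 to 4. Only affected 4 lay above every control, and 5 of the 8 arrays had the gene above their own 40th percentile. Means on the log2 scale were 7.26 ± 0.47 in affected dogs and 6.45 ± 0.72 in controls (SD, n = 4 each), a difference of 0.81 ± 0.42, or 1.75-fold. Without control 2 it was 0.53, and when every signal below the 40th percentile of all signals was raised to that level it was 0.44, so the size for this gene rests on values near the lower end of the array.

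RGS2, the brake on Gq signalling, had a pair of probe sets, and both had higher means in affected dogs. Probe set 1585658 gave a signal of 1017, 1314, 573 and 672 in affected dogs 1 to 4, against 312, 191, 211 and 288 in controls 1 to 4. It showed the widest gap between the groups among the 5 probe sets, since the lowest affected dog lay 0.88 above the highest control on the log2 scale. Its difference was 1.79 ± 0.32, with means of 9.73 ± 0.55 in affected dogs and 7.94 ± 0.34 in controls (SD, n = 4 each), or 3.45-fold. Probe set 1584614 gave 2760, 1345, 3811 and 6826 in affected dogs 1 to 4, against 1773, 567, 440 and 450 in controls 1 to 4. Here control 1 lay above affected 2, so the groups overlapped. The difference was 2.23 ± 0.56, with means of 11.61 ± 0.98 in affected dogs and 9.38 ± 0.95 in controls (SD, n = 4 each), or 4.69-fold. Without control 2 the differences were 1.67 for probe set 1585658 and 2.15 for 1584614, and without control 1 the second was 2.70.

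All 5 probe sets had a higher mean in affected dogs, and so did 50.5% of the 14705 probe sets tested. The groups did not overlap for 2 of the 5, HTR2B and RGS2 probe set 1585658, where 2.35% of tested probe sets had every affected dog above every control. Nothing is read from these counts, since the members were chosen on this contrast. The difference was larger than that of 99.6% of tested probe sets for RGS2 probe set 1584614, 99.5% for HTR2B, 99.3% for RGS2 probe set 1585658, 98.1% for DDC and 94.6% for PRKCB.

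**Figure D2:**
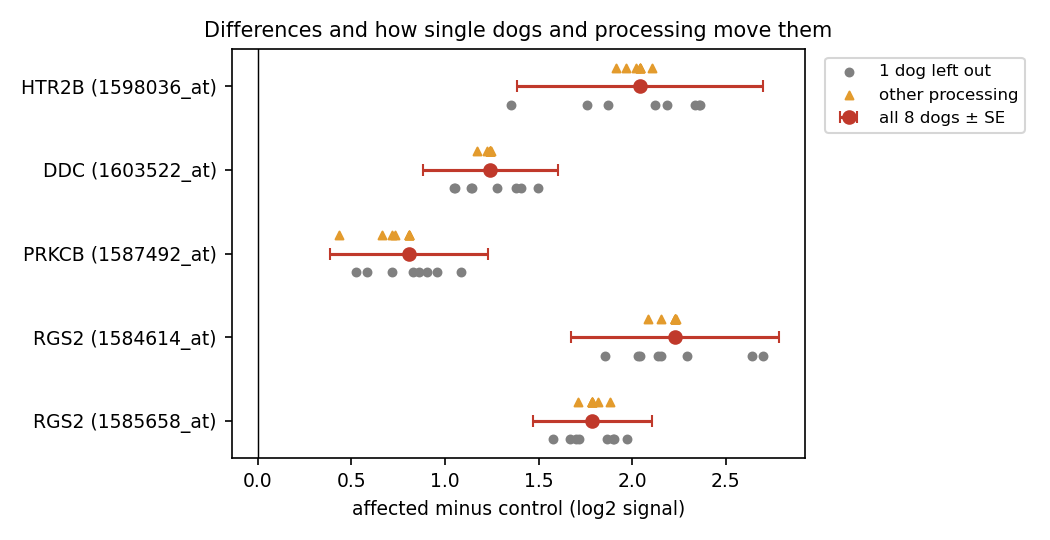
Difference in log2 signal, affected minus control, for each probe set with its standard error over 8 dogs (red), with 1 dog left out (grey) and with other processing (orange). Every point lies above 0. The lowest point of HTR2B is 1.35, without control 2, and that of DDC is 1.05, without affected 1. PRKCB is at 0.53 without control 2 and lowest, at 0.44, with a higher floor.

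The 5 probe sets did not follow each other from dog to dog within the affected group. HTR2B and RGS2 probe set 1585658 ranked the 4 affected dogs in the same order, with affected 2 highest, then affected 1, 4 and 3. DDC had the same high pair, with affected 1 above affected 2. PRKCB and RGS2 probe set 1584614 shared the other order, with affected 4 highest, then affected 3, 1 and 2. The 2 Miniature poodles, affected 2 and 4, thus lay at opposite ends of the group for RGS2 probe set 1584614, at 1345 and 6826. After each group was centred on its own mean, the mean absolute distance between log2 signals over the 8 dogs was 0.54 between HTR2B and RGS2 probe set 1585658 and 0.34 between DDC and that probe set. It was 0.87 between both probe sets of RGS2, 1.26 between HTR2B and RGS2 probe set 1584614, and 0.50 between PRKCB and RGS2 probe set 1584614. The 2 probe sets of RGS2 were therefore further apart from each other than either was from its nearest other member. The median signal of the affected arrays was 191 in affected 2, 159 in affected 1, 147 in affected 4 and 124 in affected 3. This is the order of HTR2B and RGS2 probe set 1585658. Among controls it was 157 in control 3, 147 in control 4, 146 in control 2 and 133 in control 1, which is not their order. The part of the median signal in these orders was not tested.

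Of the marker lists of other cell types, the macrophage and the endothelial list had levels that did not overlap between the groups, with 0 genes past the adjusted threshold. For the macrophage list nothing is read from this, since its mean includes MARCO and FCER1G, whose direction was fixed by the filter. Its range without these genes was not computed. The mean log2 signal of 17 macrophage and monocyte genes lay between 9.73 and 10.94 in affected dogs and between 6.56 in control 2 and 9.52 in control 1 among controls. MARCO and FCER1G were above the 40th percentile of the array in all 4 affected dogs and in 0 controls, so they entered the test through the affected dogs alone and had to be higher there. The other 15 also had higher means in affected dogs. The scavenger receptor MARCO lay at 5.10 on the log2 scale in all 4 controls, the lowest value the processing allows. Of 7 endothelial genes all 7 had higher means in affected dogs, with list values from 10.41 to 10.66 there and from 9.52 to 9.96 in controls. The macrophage list ranked the dogs 1, 4, 3 and 2 in both groups. HTR2B and RGS2 probe set 1585658 had that order among the controls but not among the affected dogs. DDC, PRKCB and RGS2 probe set 1584614 had it in neither group. PRKCB is known from leukocytes, but little can be read from its order. It lay below the array's own 40th percentile in affected 2, control 2 and control 4. The cardiac muscle list put the affected dogs in the order 2, 1, 4 and 3, at 13.28, 12.43, 12.04 and 10.16, which is also the order of HTR2B. Among controls that list had the order 2, 4, 1 and 3, which is not the order of HTR2B. With the cardiac muscle list as a covariate, an alternative chosen after seeing the data and no test of muscle content, the differences were 2.02 for HTR2B, 1.23 for DDC and 0.66 for PRKCB. With the same covariate those of RGS2 were 2.08 for probe set 1584614 and 1.88 for 1585658. Smooth muscle and myofibroblast genes, 6 in number, ranged from 10.74 to 12.28 in affected dogs and from 10.69 to 11.86 in controls. The only mast cell gene bright enough to test, MS4A2, had a log2 signal of 8.22, 8.61, 6.93 and 7.93 in affected dogs 1 to 4, against 7.37, 6.87, 7.16 and 7.34 in controls 1 to 4. MS4A2, HTR2B and RGS2 probe set 1585658 thus ranked the dogs in the same order in both groups. Nothing is read from this match, since MS4A2 is 1 of 9 listed mast cell genes and was picked after its values were seen. The share of all tested probe sets with this order was not computed. The 2 tested platelet genes averaged 6.84 to 7.73 in affected dogs and 6.28 to 7.83 in controls. The 5 T and NK lymphocyte genes averaged 7.47 to 8.12 in affected dogs and 7.41 to 8.06 in controls. The 3 adipocyte genes averaged 6.43 to 7.51 in affected dogs and 5.75 to 10.86 in controls, with lower means in affected dogs for all 3. The 6 nerve and Schwann cell genes averaged 8.68 to 9.04 in affected dogs and 8.13 to 9.04 in controls, with 3 above 0 and 3 below. CALCA, 1 of the 3 above 0, passed the 40th percentile in all 4 affected dogs and in 0 controls, so it had to be higher. The part of macrophage, endothelial, mast cell or muscle RNA in the values of the 4 genes was not tested.

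**Figure D3:**
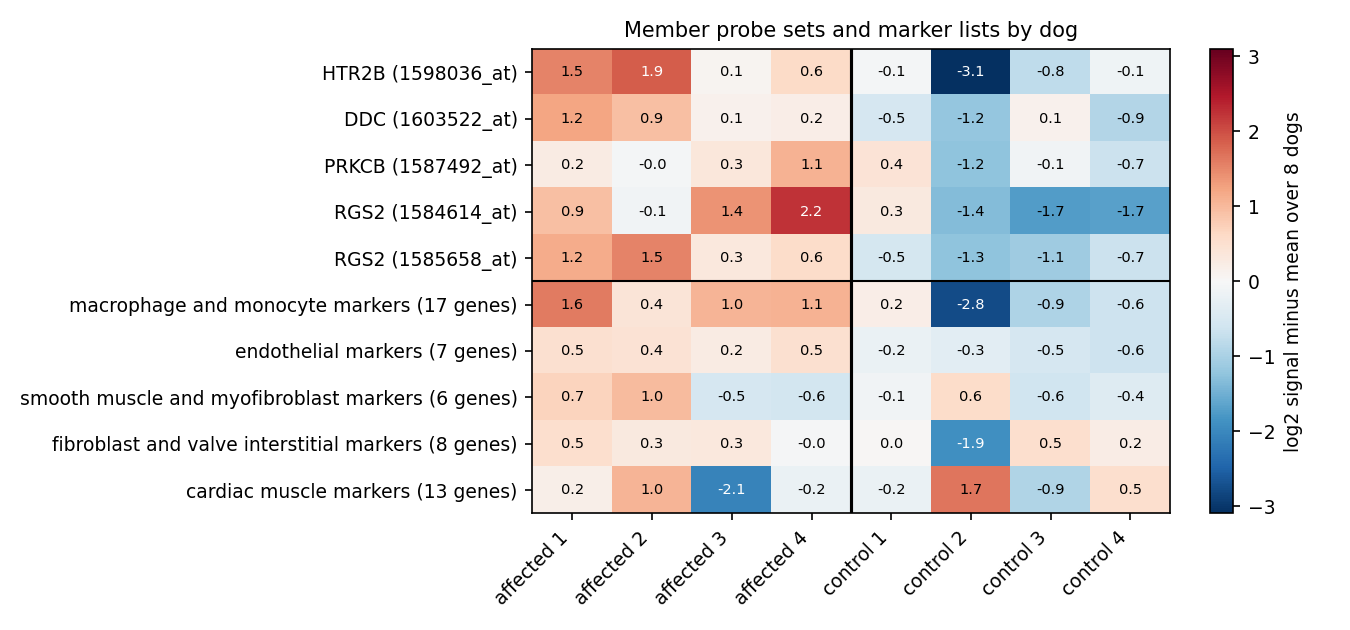
Log2 signal minus its mean over the 8 dogs, for the 5 probe sets and for the mean of each marker list, with affected dogs on the left. Control 2 is low for HTR2B, macrophage markers and fibroblast markers and high for cardiac muscle markers, and affected 3 is low for cardiac muscle markers.

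The rest of the pathway was measured in part. Of 175 genes in 8 lists of serotonin handling, receptors and Gq signalling, 62 had a probe set with their symbol and 52 were bright enough to test. No probe set among the 14705 passed limma at an adjusted p of 0.05 (0%, smallest adjusted p = 0.238). Of the 52 genes 0 passed, 1 was higher and 2 were lower at an unadjusted p under 0.05, together 5.77%. Over all tested probe sets 4.02% were higher and 3.81% lower at that p, together 7.83%. The lists' genes had a median difference of 0.11, against -0.0056 over the 5438 genes tested, with 31 above 0 and 21 below. The 21 include PTGFR, which was tested through the controls alone, as given below.

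Among genes that make, store, take up or degrade serotonin and other monoamines, 7 of 19 were tested and 0 passed in either direction. Their median difference was -0.13, with 2 above 0 and 5 below, and it was -0.058 without affected 2 and -0.23 without control 3. TPH1, TPH2 and the serotonin transporter SLC6A4 had no probe set with their symbol, so the step before DDC and the uptake of serotonin were not analysed here. SPR, which helps make the cofactor of the hydroxylases, had a signal of 1249, 548, 1525 and 535 in affected dogs 1 to 4, against 1705, 1136, 2002 and 1408 in controls 1 to 4. SPR differed by -0.82 ± 0.38, with affected 2 and 4 below all controls and affected 1 and 3 among them (limma adjusted p = 0.647). MAOA, the oxidase with the highest affinity for serotonin, differed by 0.35 ± 0.25 (adjusted p = 0.727), and by 0.21 without affected 2. Its other probe sets differed by 0.49 and 0.085. The low-affinity monoamine transporter SLC22A3 differed by -0.80 ± 0.80 (adjusted p = 0.799), and by -0.12 without affected 3. Its other probe set differed by -0.52 ± 0.68.

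Of the other serotonin receptors, 11 of 13, HTR2A and HTR2C among them, had no probe set with their symbol, and HTR1B was too dim to test. HTR7, a receptor coupled to Gs rather than Gq, was the only one tested. It had a signal of 346, 313, 163 and 596 in affected dogs 1 to 4, against 342, 224, 267 and 218 in controls 1 to 4, so affected 3 lay below every control, and affected 4 and, by a small margin, affected 1 above. HTR7 differed by 0.31 ± 0.38 (adjusted p = 0.836), by 0.011 without affected 4 and by 0.63 without affected 3.

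The Gq subunits and the IP3 receptor showed differences no larger than their errors. GNAQ, the Gq alpha subunit itself, had a signal of 284, 386, 480 and 393 in affected dogs 1 to 4, against 313, 318, 249 and 411 in controls 1 to 4, and differed by 0.26 ± 0.26 (adjusted p = 0.806). Its sister GNA11 differed by 0.14 ± 0.41 (adjusted p = 0.945) and the IP3 receptor ITPR2 by -0.0089 ± 0.48 (adjusted p = 0.997). Both changed sign when single dogs were left out, GNA11 to -0.18 without control 1 and ITPR2 to 0.31 without the same dog. These were the 3 genes tested of 11, with a median of 0.14. That median was -0.027 without affected 3, 0.35 without affected 1, 0.090 without affected 2, 0.25 without control 1 and 0.38 without control 4, and PLCB3 and PLCB4, which are phospholipases of this step, were too dim. Of 20 other protein kinase C, protein kinase D and diacylglycerol kinase genes 7 were tested, 0 passed in either direction, and their median was 0.072, with 4 above 0 and 3 below. That median was 0.35 without affected 2 or without control 3, 0.28 without affected 3, 0.14 without affected 4, 0.16 without control 4, 0.021 without control 1 and -0.0028 with median centring. The kinases PRKD2 and PRKD3, which protein kinase C activates, differed by 0.54 ± 0.35 (adjusted p = 0.711) and 0.38 ± 0.26 (adjusted p = 0.7196), and by 0.27 without control 1 and 0.20 without control 2. The other probe set of PRKD3 differed by 0.068 ± 0.28. The atypical PRKCZ differed by -0.17 ± 0.42 (adjusted p = 0.930) and by 0.14 without affected 4, and PRKCA, another classical protein kinase C, by 0.16 ± 0.44 (adjusted p = 0.939).

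**Figure D4:**
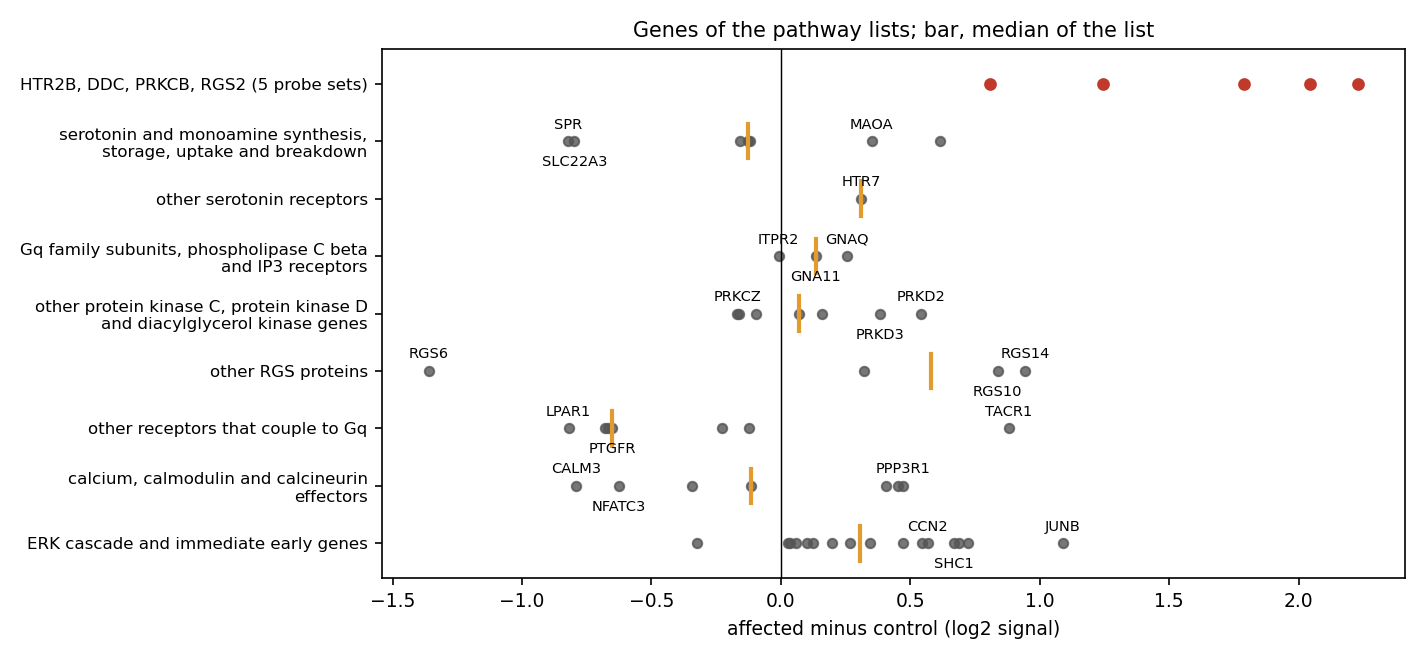
Difference in log2 signal, affected minus control, of each tested gene in the 8 pathway lists (grey, with the list median in orange and the 3 genes of smallest unadjusted p named) and of the 5 probe sets of HTR2B, DDC, PRKCB and RGS2 (red). The list genes spread on both sides of 0, up to 1.36 from it. The 5 red points lie from 0.81 to 2.23, but they were chosen for higher signals in this contrast. Their place beside the list genes is therefore no result, and JUNB, at 1.09, lies above the lowest of them.

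Other RGS proteins were 4 tested of 20, 3 above 0 and 1 below, with a median of 0.58 and 0 past the threshold. The median was 0.29 without affected 2. RGS14, which acts on Gi rather than Gq subunits, had a signal of 595, 570, 253 and 526 in affected dogs 1 to 4, against 324, 163, 334 and 187 in controls 1 to 4. It differed by 0.94 ± 0.36 (adjusted p = 0.601), with affected 3 among the controls and the other affected dogs above them. RGS10, a small RGS protein of leukocytes and other cells, differed by 0.84 ± 0.47 (adjusted p = 0.680), and by 0.45 without affected 2, and its other 3 probe sets differed by 0.23 to 1.01. RGS6 differed by -1.36 ± 0.69 (adjusted p = 0.666), and by -0.67 without control 2.

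Receptors other than HTR2B that couple to Gq had lower means in 6 of 7 tested genes of 34 listed, with a median of -0.65 and 0 past the threshold. PTGFR, whose direction was fixed by the filter as given below, is 1 of these 6. The list median is its own difference, so little can be read from it. That median was -0.12 without control 2, -0.38 without affected 4, -0.40 without control 4 and -0.23 when dim probe sets were also tested. The prostaglandin receptor PTGFR had a signal of 98.5, 98.9, 74.4 and 84.1 in affected dogs 1 to 4, against 121, 102, 160 and 188 in controls 1 to 4. Every affected dog lay below every control, as for 2.31% of tested probe sets. However, all 4 affected arrays had PTGFR below their own 40th percentile and all 4 control arrays above it, so the gene was tested through the controls alone and had to differ. Its difference of -0.65 ± 0.31 (adjusted p = 0.658) is given as a value only. The lysophosphatidic acid receptor LPAR1 differed by -0.82 ± 0.43 (adjusted p = 0.666), and by -0.54 without control 4. TACR1, the substance P receptor, was the 1 gene above 0, at 0.88 ± 0.45 (adjusted p = 0.666), and was at 0.51 without control 4 and at 0.55 with the higher floor.

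Calcium, calmodulin and calcineurin genes were 7 tested of 21, with a median of -0.12, 3 above 0, 4 below and 0 past the threshold. The median turned to 0.10 without control 2 and to 0.095 without affected 3, and lay between -0.37 and -0.17 without any 1 of the other dogs. CALM3, a calmodulin gene, had a signal of 1130, 1286, 2322 and 1179 in affected dogs 1 to 4, against 2855, 1758, 2624 and 2712 in controls 1 to 4, so affected 3 lay among the controls. It differed by -0.79 ± 0.29 (adjusted p = 0.576), and its other probe sets by -0.89 and 0.10. NFATC3, a transcription factor that calcineurin activates, had a signal of 183, 211, 256 and 245 in affected dogs 1 to 4, against 338, 299, 301 and 451 in controls 1 to 4. All affected dogs were below all controls, and NFATC3 differed by -0.63 ± 0.25 (adjusted p = 0.610). The calcineurin subunit PPP3R1 differed by 0.47 ± 0.25 (adjusted p = 0.669).

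The ERK cascade and immediate early genes, which respond to many receptors, had 16 tested genes of 37, 15 above 0 and 1 below, a median of 0.31 and 0 past the threshold. The median was 0.090 without affected 4 and 0.61 without control 1. The adaptor SHC1 differed by 0.67 ± 0.35 (adjusted p = 0.666) and by 0.32 without control 2, while its other probe set was at 0.0080 ± 0.40. CCN2, a matrix protein and target of TGF-beta, differed by 0.57 ± 0.30 (adjusted p = 0.666) and by 0.33 without affected 1. JUNB, a transcription factor, had a signal of 3483, 2560, 10136 and 9381 in affected dogs 1 to 4, against 9259, 1472, 1748 and 1734 in controls 1 to 4. JUNB was high in affected 3, affected 4 and control 1, and differed by 1.09 ± 0.64 (adjusted p = 0.697) and by 1.71 without control 1.

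RGS2 probe set 1584614 also had affected 4 and 3 as its highest affected dogs and control 1 as its highest control. The 10 immediate early genes of the list were set beside RGS2 after their values were seen, and as a description only. FOS had a signal of 854, 1235, 10230 and 5654 in affected dogs 1 to 4, against 10266, 2287, 995 and 2214 in controls 1 to 4, and its groups had nearly the same mean, with a difference of 0.060 ± 0.87. Control 1 was the highest control for 8 of the 10, the exceptions being EGR2 and CCN2. Within groups, 6 of the 10 genes lay nearer to RGS2 probe set 1584614 than to 1585658. Among them were IER2, at a mean distance of 0.32 against 0.68, and JUNB, at 0.33 against 1.03. The share of all tested probe sets nearer to 1584614 was not computed, so nothing is read from this count. The median within-group distance over all named candidates was 0.80 for 1584614 and 0.47 for 1585658. CCN2 was nearer to probe set 1585658, at 0.27 against 0.98, with its higher values in affected 1 and 2.

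**Figure D5:**
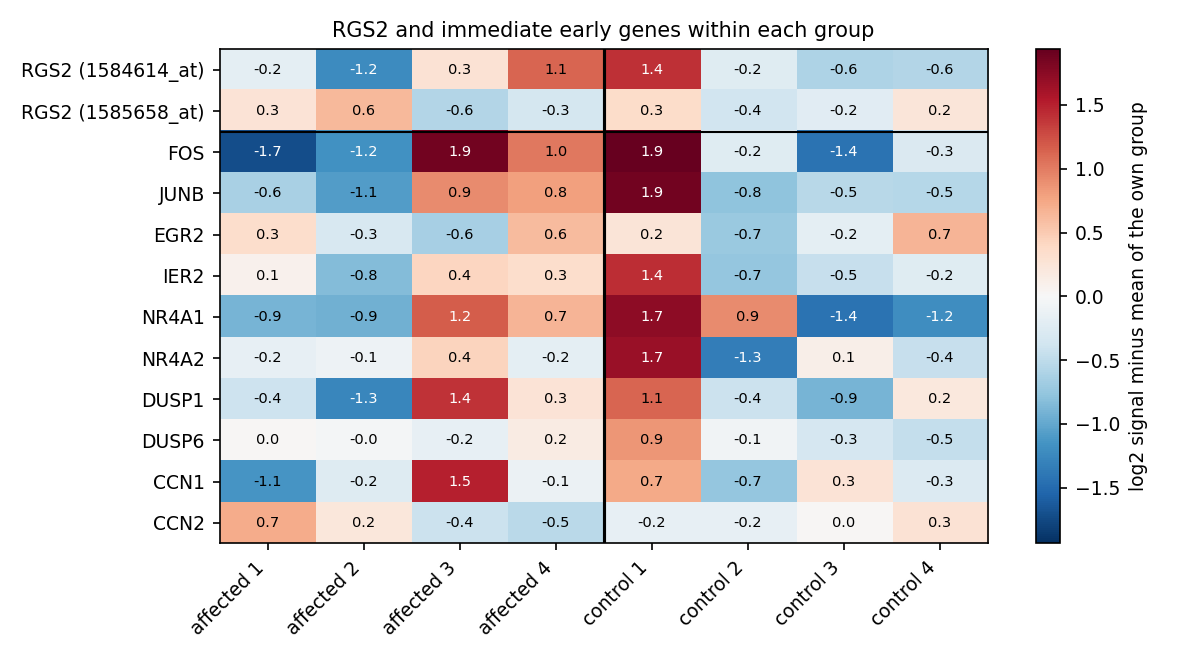
Log2 signal minus the mean of the dog's own group for both probe sets of RGS2 and 10 immediate early genes. FOS, JUNB, NR4A1 and DUSP1 are high in affected 3, affected 4 and control 1, as is RGS2 probe set 1584614, while probe set 1585658 is high in affected 1 and 2.

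The genes whose profile lay nearest to each member were found by the mean absolute distance over the 8 dogs between log2 signals centred on their own means, among 7850 named probe sets. Since the group difference is part of this distance, it is a description of these dogs. For HTR2B the nearest were CD86, a costimulatory molecule of antigen-presenting cells, at 0.41, the lysosomal protease CTSS at 0.42 and the lectin CD209 at 0.48, against a median of 1.11 over all candidates. DDC was nearest to KLHL42 at 0.19, TSSC4 at 0.22 and C1H9orf3 at 0.23 (median 0.75), and PRKCB to UMPS, an enzyme of pyrimidine synthesis, at 0.14, CKAP4 at 0.19 and ADSS2 at 0.20 (median 0.66). For RGS2 probe set 1584614 these were lysozyme (LYZ) at 0.34, the adhesion molecule VCAM1 at 0.36 and the matrix protein RELN at 0.43 (median 1.28). For probe set 1585658, added after the disagreement between both probe sets was seen, they were the fibronectin receptor subunit ITGA5, the macrophage gene MPEG1 and ZNF7, all at 0.34 (median 0.93). With each group centred on its own mean, which removes the group difference, LYZ and VCAM1 were again among the 3 nearest to RGS2 probe set 1584614, at 0.29 and 0.26. By that measure none of the 3 genes named above for HTR2B was among its nearest 3, which were WWP2, PHYHD1 and TMEM268 at 0.32 to 0.35. None of those named for DDC was among its nearest either, which were ACBD4, B3GAT2 and PPP1R14B at 0.12 to 0.15. UMPS stayed the nearest to PRKCB, at 0.14. For RGS2 probe set 1585658, ZNF7 was again among the nearest 3, by another of its probe sets, at 0.12.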

How the data were processed

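The deposited table holds the authors' MAS5 signals, per the submitters' processing notes, and its values lie on a linear intensity scale. Of MAS5 version, detection calls and filters, none is given in the sources used here. Gene symbols came from the platform annotation, which gave 1 symbol for 10549 of 23913 rows. Each array was scaled to the same trimmed mean, values under 34.2 (the 20th percentile) were raised to it, and all were put on the log2 scale. Testing took probe sets where 4 or more of 8 arrays exceeded their own 40th percentile. The fit was limma 3.58.1 in R 4.3.3 (lmFit, eBayes with trend), with two-sided p-values adjusted by Benjamini-Hochberg across 14705 probe sets, after a trial on simulated data. Each SE is limma's.

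A gene in a list was read from its brightest tested probe set. The text names every probe set of the 4 genes, the 3 genes per pathway list with the smallest unadjusted p and the 3 nearest profiles. Members and lists were chosen with earlier results of these data known. PRKCA, FOS, MARCO, FCER1G, CALCA, MS4A2 and the immediate early genes were picked after their values were seen. Precision is limited by 4 arrays per group. Alternatives were other normalization, floors, filters and priors, a replicate block, and leaving out each dog.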

Additional observations from a re-analysis of the deposited data

Results flagged for a closer look

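In 92 groups of 4 dogs, formed by the 5 probe sets, the named pathway genes and the marker lists, 5 had 1 dog whose distance from the nearest other dog passed Dixon's 95% critical value, and chance alone gives about 1 in 20. PRKCZ was at a log2 signal of 6.06 in affected 4, against 7.26 to 7.33 in the other affected dogs. RGS14 was at 7.99 in affected 3, with the other affected dogs at 9.04 to 9.22. TACR1 was at 5.33 in control 4, where the other controls lay at 6.70 to 6.88. JUNB was at 13.18 in control 1, far above the other controls at 10.52 to 10.77. The mean of 6 nerve and Schwann cell genes was 8.68 in affected 2, with the other affected dogs at up to 9.04. No probe set of HTR2B, DDC, PRKCB or RGS2 was among the 5.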

How the results depend on the processing

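The 5 probe sets of HTR2B, DDC, PRKCB and RGS2 kept a higher mean in affected dogs under every alternative that could give a value. HTR2B and PRKCB gave none under the stricter filter. Each moved by less than the pooled SD of the groups, which is a wide limit. It was 1.16 for HTR2B, whose difference fell from 2.04 to 1.35 without control 2. For PRKCB it was 0.61, and the difference fell from 0.81 to 0.44 with the higher floor. The count of probe sets past the threshold was 0 except for 4 with a replicate block (SAA1, UPP1, S100P and an unnamed one) and 1 without control 1, none of them a member. The labels give each dog a replicate number and state no pairing. Deviations of dogs with the same number correlated at -0.12, 0.41, 0.022 and -0.013, and only affected 2 was most like its own number. Whether arrays with the same number were handled together was not tested. With 1 dog left out, 0 to 1 probe sets passed, 359 to 974 were higher and 312 to 817 lower at an unadjusted p under 0.05. List medians with 1 dog left out ranged from -0.23 to -0.058 for serotonin handling, 0.021 to 0.35 for protein kinase C and related kinases, -0.66 to -0.12 for other Gq-coupled receptors, -0.37 to 0.10 for calcium effectors, -0.027 to 0.38 for Gq subunits and IP3 receptors, 0.29 to 0.77 for other RGS proteins and 0.090 to 0.61 for the ERK cascade and immediate early genes. The median of the Gq subunit list was -0.0068 and that of the receptors -0.23 with no filter, and the calcium median -0.31 with the median probe set of each gene. GNA11 ranged from -0.18 to 0.46, ITPR2 from -0.40 to 0.31 and PRKCZ from -0.46 to 0.14. The cause of these shifts was not tested.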
